A study of Mus musculus with 4 samples.

Results

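The cells described here are milk gene-high epithelial cells of mouse mammary tumors: 4266 barcodes out of 8788 epithelial barcodes and 20892 barcodes kept in all. A barcode was kept with at least 2000 unique molecular identifiers (UMIs, each standing for 1 captured RNA molecule) and at most 20% mitochondrial UMIs. It was called epithelial when it held no UMI of the leukocyte gene Ptprc and at least 10 UMIs of Epcam, Krt8 and Krt18 together per 10000 UMIs. It was called milk-high when, in addition, the 6 milk genes Csn2, Csn3, Csn1s1, Csn1s2a, Wap and Lalba together reached 50 per 10000, the hormone-sensing genes Prlr, Cited1 and Foxa1 stayed under 10, and the cycling genes Mki67, Top2a, Birc5, Cdk1 and Ube2c stayed under 5. The 3096 milk-low epithelial cells of the same libraries, which met every limit but the one on milk genes, served for comparison. The rule used the levels of these 18 genes, so members were chosen by measured values. These genes are described without a test between the classes, and they stayed in the fit between genotypes.

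The control group (Cre-, replicates 1 and 3) was MMTV-Cre-; Frmd8fl/fl; PyMT and the group with Cre (Cre+, replicates 2 and 4) was MMTV-Cre+; Frmd8fl/fl; PyMT, all at an endpoint of 17 to 18 weeks, with 1 single-cell library of 3' ends per replicate. All 4 carried the floxed Frmd8 alleles and the polyoma middle T oncogene, and they differed in the Cre transgene, which removes floxed Frmd8 exons. Both the oncogene and Cre were driven by the mouse mammary tumor virus promoter, which acts mainly in mammary epithelium, and recombination was not measured here. The cells had been sorted by fluorescence with a gate not given in the sources used here, and the labels speak of 4 tumors of mice without tying each library to a mouse, so p-values measure the spread between libraries.

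In the lactating mammary gland, alveolar cells secrete milk proteins. Prolactin acts through JAK2 and STAT5, and the transcription factor ELF5 drives alveolar fate. Caseins bind calcium phosphate into micelles, with Csn3 (kappa-casein) coating the micelle surface, while Lalba (alpha-lactalbumin) turns a galactosyltransferase into lactose synthase and Wap is a whey protein. Secretion on this scale needs a large endoplasmic reticulum with its chaperones. PyMT tumors arise from luminal epithelium and are known to keep some milk gene expression.

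Sets of 4 values are given below in the order Cre- replicates 1 and 3, then Cre+ replicates 2 and 4. The libraries held 122658098, 126843597, 112729231 and 157662955 UMIs. Cre+ replicate 4 stood apart in several ways. It was deposited with all 2582424 barcodes and a header of Cell Ranger 4, against 7020, 8017 and 7411 barcodes and version 6.1.2 in the others. Its milk-high share was the lowest, and it alone held Csn2 in more than a few cells. The software version, the deposited form and this library cannot be told apart, so results are also given without it. Across libraries, 60 barcode sequences passed the limits on depth and mitochondrial UMIs in more than 1 library, among them 6, 7, 7 and 3 milk-high cells of Cre- replicates 1 and 3 and Cre+ replicates 2 and 4.

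The promoters of 5 of the 6 milk genes were found in the RefSeq promoter table (build GRCm38.p6), which gave none for Csn3. They are shown as background to genes that did not move as a block. Csn2 and Csn1s1 lie in the casein cluster on chromosome 5 and Lalba on chromosome 15, and their levels in these cells differed widely. The part of promoter sequence or chromosomal place in these levels was not tested. The 250 bases before the start site are shown 5′ to 3′ on the strand of the gene, for Csn2 (chr5:87699426-87699675, minus strand), Csn1s1 (chr5:87665958-87666207, plus strand) and Lalba (chr15:98482684-98482933, minus strand). Capitals mark a match to the STAT5 motif TTCNNNGAA, searched on both strands.
Csn2: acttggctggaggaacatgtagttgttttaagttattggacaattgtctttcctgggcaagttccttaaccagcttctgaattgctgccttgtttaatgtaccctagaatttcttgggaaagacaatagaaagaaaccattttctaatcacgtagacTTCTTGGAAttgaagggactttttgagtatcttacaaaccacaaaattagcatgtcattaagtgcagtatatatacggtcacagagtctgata
Csn1s1: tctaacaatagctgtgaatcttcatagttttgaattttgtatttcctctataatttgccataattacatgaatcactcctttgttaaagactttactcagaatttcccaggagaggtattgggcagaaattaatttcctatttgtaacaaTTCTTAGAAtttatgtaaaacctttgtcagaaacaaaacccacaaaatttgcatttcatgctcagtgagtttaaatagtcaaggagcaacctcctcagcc
Lalba: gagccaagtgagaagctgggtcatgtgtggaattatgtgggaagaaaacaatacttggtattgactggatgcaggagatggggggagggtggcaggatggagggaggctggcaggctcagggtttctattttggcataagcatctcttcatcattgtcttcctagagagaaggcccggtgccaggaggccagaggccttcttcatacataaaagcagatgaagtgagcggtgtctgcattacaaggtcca

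The STAT5 letters stood at positions -93 to -85 of Csn2 and -100 to -92 of Csn1s1 and in no window of Csn1s2a, Wap or Lalba. In all, 2306 of 32851 promoter windows of this length held them (7.02%). The ELF5 core GGAAG was present in the windows of Wap and Lalba and in 64.1% of all windows. The palindromic NF1 and glucocorticoid response motifs and the TATA box TATAAA had no match in the 5 windows and matched 0.0365%, 0.00913% and 12.4% of all windows. Each match is a description of letters.

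The milk signal of these cells was almost entirely Csn3, and the data went against the name casein-secreting alveolar cells in 1 respect: Csn2 (beta-casein) was absent or nearly so from 3 of the 4 libraries. Csn3 made up 90.0% of the milk gene UMIs of milk-high cells in the first library in that order, and 98.1%, 95.4% and 89.6% in the others. Every milk-high cell held Csn3, and in 9, 2, 9 and 8 cells it was under 50% of the milk UMIs. They are therefore called milk-high or Csn3-high cells below.

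Levels of genes are given as CPM, the UMIs of a gene per 1000000 UMIs of the cells of a class. Csn3 stood at 13695 and 16508 CPM in the Cre- libraries and at 19681 and 9702 CPM in the Cre+ libraries. In milk-low cells it stood at 2246, 2004, 1145 and 1174 CPM. In the barcodes of 1 to 100 UMIs of Cre+ replicate 4, too shallow to be cells, Csn3 stood at 1541 CPM. In Ptprc-positive barcodes without epithelial genes it stood at 130, 95.8, 127 and 26.1 CPM, below the milk-low cells of each library. The part of free RNA in the Csn3 of milk-low cells was not tested. The classes are ranges of the milk level, as the plot of milk gene levels per barcode shows. Because the libraries count 1 tag per molecule, CPM values of different genes are compared without a length correction.

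**Figure D1:**
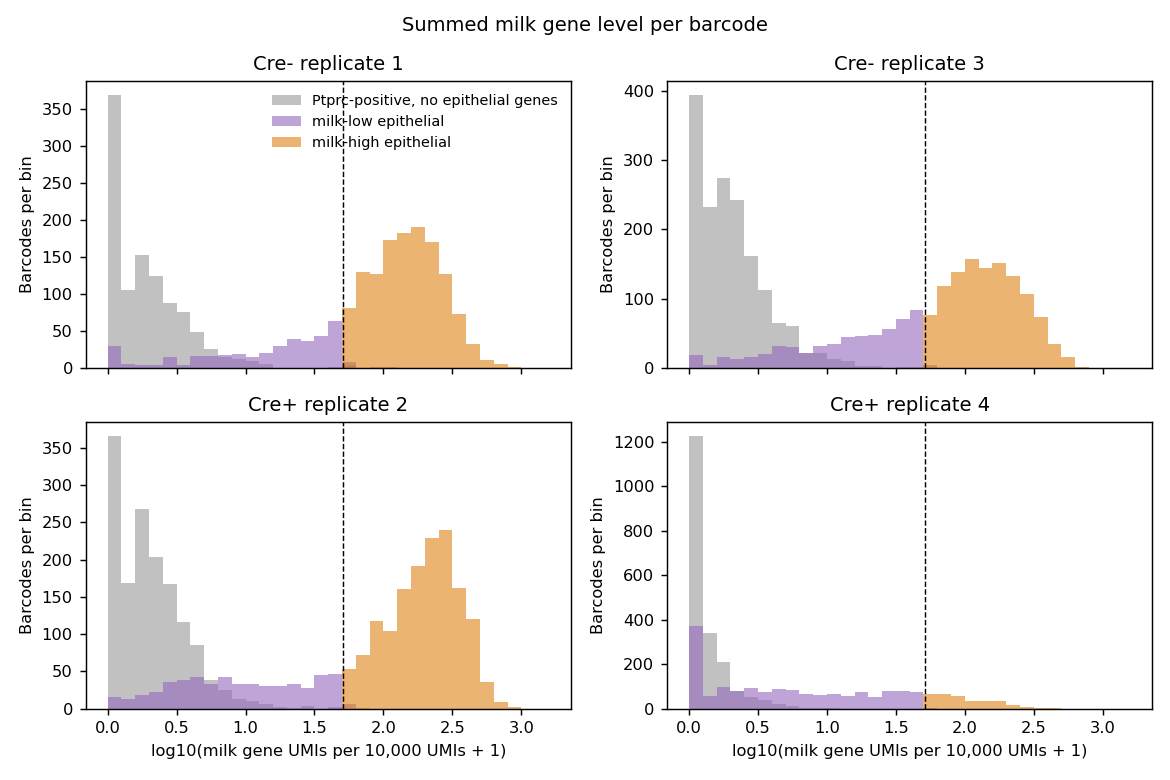
Histograms of the summed milk gene level per barcode in the 4 libraries (x axis, log10 of UMIs per 10000 plus 1; y axis, barcodes per bin) for milk-high epithelial, milk-low epithelial and Ptprc-positive barcodes without epithelial genes. The dashed line marks 50 per 10000. Milk-high cells form a peak in 3 libraries and a shoulder in Cre+ replicate 4, and leukocytes lie near 0.

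Csn2 was found as 1 and 0 UMIs in the milk-high cells of the Cre- libraries and as 38 and 6603 UMIs in those of the Cre+ libraries. The count of 0 allows up to 0.0910 CPM, and the limits here cover counting error only. In Cre+ replicate 2 the 38 UMIs lay in 3 cells. In Cre+ replicate 4 the gene reached 585 CPM, in 56 of 323 milk-high cells, and 67.5% of its UMIs lay in 10 cells. It exceeded Csn3 in 6 of those 323 cells.

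Lalba levels were 757, 118, 721 and 153 CPM in the milk-high cells of Cre- replicates 1 and 3 and Cre+ replicates 2 and 4, and 34.0, 9.18, 82.9 and 11.2 CPM in milk-low cells. Wap stood at 674, 75.8, 102 and 141 CPM against 206, 28.1, 37.0 and 5.76 CPM. Both genes were higher in milk-high cells of every library, and the libraries differed widely for either gene. Wap was highest in Cre- replicate 1, and Lalba was high in Cre- replicate 1 and Cre+ replicate 2.

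Csn1s1 (alpha-s1-casein) was spread differently. It stood at 92.8, 116, 133 and 207 CPM in milk-high cells and at 33.7, 79.6, 166 and 34.8 CPM in milk-low cells, so it was lower in the milk-high cells of Cre+ replicate 2. Csn1s2a stood at 2.62, 1.40 and 2.87 CPM in 3 libraries and at 44.3 CPM in Cre+ replicate 4. There, 89.4% of its UMIs and 80.6% of those of Csn1s1 lay in 10 cells. After every milk-high cell was thinned to 2000 UMIs, Lalba was seen in 34.4%, 8.81%, 31.4% and 8.98% of cells and Wap in 33.6%, 8.55%, 5.20% and 9.91%. These are descriptions of cells from 4 libraries.

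**Figure D2:**
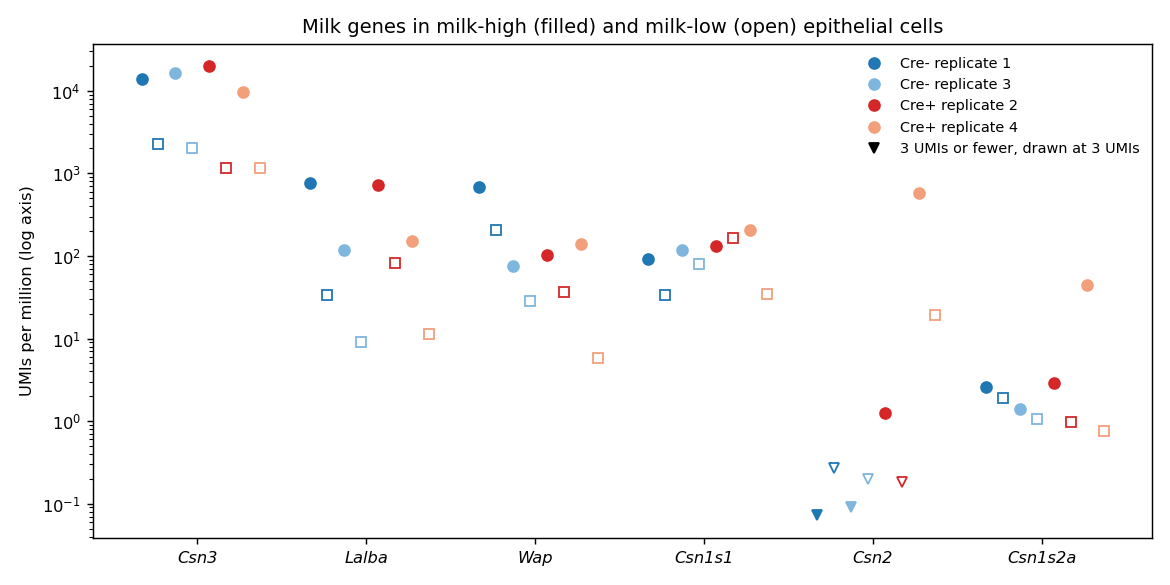
Level of the 6 milk genes (y axis, CPM, log scale) in milk-high cells (filled) and milk-low cells (open), 1 color per library. Triangles stand for 3 UMIs or fewer and are drawn at the value of 3 UMIs. Csn3 leads in all 4 libraries, and Csn2 is high in Cre+ replicate 4 only.

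Milk RNA was far lower in leukocytes, which were chosen for little epithelial RNA, so their low milk level may follow in part from that choice. Among Ptprc-positive barcodes without epithelial genes, 0.484%, 0%, 0.0677% and 0% reached 50 milk UMIs per 10000 in Cre- replicates 1 and 3 and Cre+ replicates 2 and 4, and their median levels were 0.714, 0.827, 0.901 and 0 per 10000. The medians of milk-high cells were 149.8, 142.9, 210.8 and 85.4 per 10000. The median depths of the leukocytes (11083, 16145, 14016.5 and 19278.5 UMIs) and of milk-high cells (22906.5, 21936, 12345 and 29204 UMIs) were of the same order. The median leukocyte thus held less than 1 milk UMI per 10000 in each library. Epithelial barcodes that reached 50 milk UMIs per 10000 and missed another limit numbered 101, 162, 63 and 227, with medians of 75.6, 81.8, 117 and 92.7 per 10000, the last above the median of the milk-high cells of its library.

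Milk-high cells had more UMIs and genes than milk-low cells in 3 of 4 libraries, and fewer in Cre+ replicate 2. Median UMIs of milk-low cells were 14208, 19399, 18296 and 14741. The mean difference was 4937 UMIs ± 8741 (SD, n = 4 libraries), with an exact two-sided sign-flip permutation p of 0.375, where 0.125 is the smallest that 4 libraries allow. Median genes per cell differed by 543 ± 937 (exact permutation p = 0.375, n = 4). Cells with under 1% mitochondrial UMIs made up 4.39%, 8.90%, 4.47% and 12.4% of milk-high cells and 13.6%, 15.8%, 9.45% and 16.6% of milk-low cells, a lower share in milk-high cells of all 4 libraries, and their part in the class comparison was not tested. The median mitochondrial share of milk-high cells was 6.35%, 5.65%, 7.70% and 4.69%, against 6.66%, 5.15%, 6.47% and 3.84% in milk-low cells (mean difference 0.569 percentage points ± 0.656, SD, exact permutation p = 0.25, n = 4). Doublets were not removed.

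Cells just inside and just outside the limit were also described. Csn3, Lalba and Wap are part of the sum that the limit divides, so their levels on its sides follow in part from the rule. Between 50 and 60 per 10000 there were 66, 53, 44 and 58 cells, with Csn3 at 4882, 5207, 5113 and 5352 CPM. Between 40 and 50 there were 66, 81, 47 and 70 cells, with Csn3 at 4055, 4419, 3982 and 4376 CPM. Lalba stood at 176, 20.6, 269 and 10.9 CPM just inside and 56.4, 20.5, 38.2 and 37.6 CPM just outside. Wap stood at 455, 75.2, 83.0 and 88.4 CPM just inside and 347, 25.4, 160 and 9.59 CPM just outside, so neither gene had the same direction in all 4 libraries. Elf5, which the rule did not use, stood at 222, 252, 258 and 177 CPM just inside and 243, 238, 258 and 141 CPM just outside.

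The levels of single genes were also read along the milk level, with Lalba, Spp1, Hspa5, Elf5 and Fasn as examples chosen after their values were seen. Lalba, itself part of the sum, stood at 129 CPM at 50 to 100 per 10000 and 4619 CPM at 400 or more in Cre- replicate 1. Spp1 (osteopontin, a secreted milk phosphoprotein), which the rule did not use, stood at 532 CPM in the bin of 50 to 100 and 7970 CPM at 400 or more in Cre- replicate 1, at 4066 and 7542 CPM in Cre- replicate 3, and at 356 and 3876 CPM in Cre+ replicate 2. In Cre+ replicate 4 it stood at 7.72 CPM from 50 to 100 and 617 CPM from 200 to 400, where 25 cells lay. Hspa5, the main chaperone of the endoplasmic reticulum, went from 475 to 1428 CPM, 717 to 1667 CPM and 412 to 1111 CPM over the same bins of Cre- replicates 1 and 3 and Cre+ replicate 2. Elf5 was lowest under 10 per 10000 in all 4 libraries, at 141, 150, 164 and 81.9 CPM. Fasn, the fatty acid synthase, stood at 84.6 CPM from 50 to 100 and 33.9 CPM at 400 or more in Cre- replicate 1. That direction was not general. Over the whole classes Fasn was higher in milk-high than milk-low cells of Cre+ replicate 4 (78.7 against 48.6 CPM). It was nearly equal in Cre+ replicate 2 (61.4 against 61.0 CPM) and lower in both Cre- libraries. The bins of 1 library share its depth and free RNA, so they are descriptions.

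**Figure D3:**
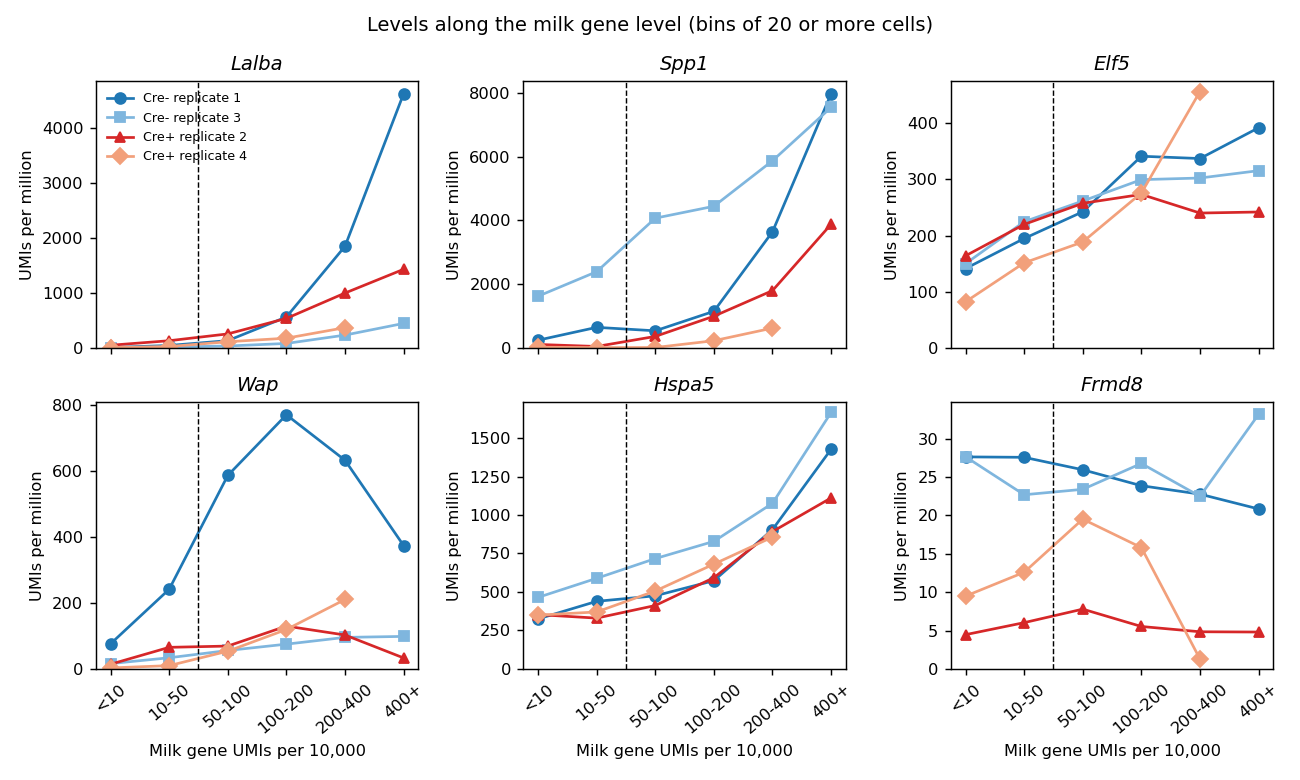
Level of Lalba, Spp1, Elf5, Wap, Hspa5 and Frmd8 (y axes, CPM) in bins of the summed milk gene level (x axes, UMIs per 10000) for each library. The dashed line is the limit of 50, and bins under 20 cells are left out. Spp1 and Hspa5 are higher in the highest plotted bin than in the bin of 50 to 100 in each of the libraries, whereas Wap peaks at 770 CPM in the bin of 100 to 200 of Cre- replicate 1.

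Which other genes went along with the milk genes was asked by comparing milk-high with milk-low cells of the same library, with UMIs summed per library and class and the 18 genes of the rule left out. Saa1, Chil1, Tspan8 and Folr1 were higher, and Nkd2, Krt17, Tnfrsf11b and Pdgfb lower, in milk-high cells of all 4 libraries. In the edgeR quasi-likelihood test with the library as a block, 127 of 15036 genes passed an adjusted p of 0.05 (0.845%), 64 higher (0.426%) and 63 lower (0.419%). The count rested on few libraries: 1 gene, Pdgfb, passed without Cre- replicate 1 or without Cre+ replicate 2, 15 passed without Cre- replicate 3 and 457 without Cre+ replicate 4 (1.78% of genes higher and 1.3% lower). Without regard to a test, 14.8% of all genes were higher and 12.1% lower in all 4 libraries.

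Of the genes that rose, the 10 with the largest change are named. Saa1 (serum amyloid A1, an acute-phase protein) stood at 861, 170, 324 and 206 CPM in the milk-high cells of Cre- replicates 1 and 3 and Cre+ replicates 2 and 4 and at 64.4, 46.0, 55.5 and 30.03 CPM in milk-low cells. Every milk-high value lay above every milk-low value, and the log2 fold change was 2.76 ± 0.30 (SE, adjusted p = 0.0271). Chil1, a secreted chitinase-like protein, stood at 843, 172, 854 and 42.5 CPM against 146, 60.6, 170 and 7.76 CPM (log2 fold change 2.22 ± 0.20, adjusted p = 0.0236). Its groups overlapped, although within each library the milk-high value was higher.

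Folr1, a folate receptor, stood at 289, 184, 379 and 219 CPM against 117, 95.7, 90.2 and 70.6 CPM, without overlap (log2 fold change 1.51 ± 0.17, adjusted p = 0.0281). Pigr, which carries immunoglobulin A across epithelium into milk, stood at 152, 92.6, 100 and 87.1 CPM against 75.4, 29.95, 22.8 and 54.8 CPM (1.38 ± 0.22 on the log2 scale, adjusted p = 0.0486). The other genes among the 10 with the largest rise were the tetraspanin Tspan8 (2.20), Dkkl1 (2.07), Lrg1 (1.43), Crabp2 (1.42), the transcription factor Foxi1 (1.41) and Apol7a (1.40), as log2 fold changes.

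Of the genes that fell, the 10 with the largest change are named likewise. Pdgfb, a platelet-derived growth factor chain, stood at 5.79, 4.73, 2.68 and 8.33 CPM in milk-high cells and 36.4, 25.6, 13.3 and 54.1 CPM in milk-low cells. The libraries gave nearly the same ratio, and it fell by 2.50 on the log2 scale (SE 0.10, adjusted p = 0.000932), the call that held with any 1 library left out. Tnfrsf11b (osteoprotegerin, a decoy receptor for RANKL) stood at 1.30, 3.21, 1.01 and 4.43 CPM against 16.3, 9.90, 5.59 and 48.3 CPM (log2 fold change -2.77 ± 0.33, adjusted p = 0.0325). Nkd2, an inhibitor of Wnt signaling, had a log2 fold change of -2.90 and Gja1 (connexin 43) one of -1.68. Foxq1 (-1.79), Fermt1 (-1.52), Col4a1 (-1.44) and Ecm1 (-1.42) completed the list together with Krt17 and Sparc. Foxq1 and Sparc passed in none of the 4 fits without 1 library.

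**Figure D4:**
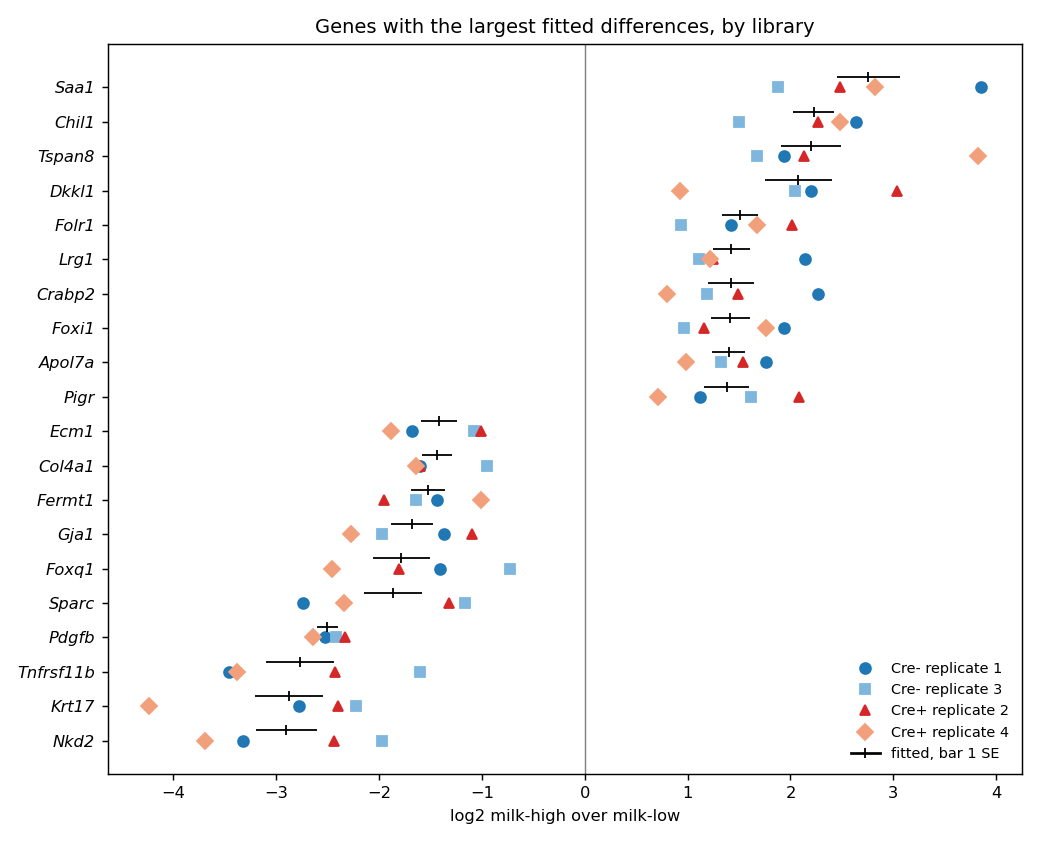
log2 ratio of milk-high over milk-low cells (x axis) in each of the 4 libraries for the 10 genes with the largest fitted rise and the 10 with the largest fitted fall (y axis) among those called; the black bar is the fitted value ± 1 SE. All 4 points of each gene lie on the same side of 0, and the points of Pdgfb lie close together.

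Genes of the secretory pathway, which fold and move secreted proteins, were mostly higher in milk-high cells. Of 29 members tested, 7 rose and none fell, and 26 were higher in all 4 libraries. Over all genes tested, 0.426% rose and 0.419% fell, and 14.8% were higher and 12.1% lower in all 4 libraries. The median log2 fold change of the list was 0.48, against -0.01 over all genes tested. The 7 were Hspa5, Manf, Dnajc3, Creld2, Pdia4, Sdf2l1 and Calr, all of them chaperones, isomerases or stress-induced proteins of the endoplasmic reticulum. Hspa5 stood at 625, 889, 711 and 589 CPM against 415, 550, 342 and 358 CPM, without overlap (0.79 ± 0.10 on the log2 scale, adjusted p = 0.0339). Sdf2l1 had the largest change of the 7 (1.29 ± 0.20, adjusted p = 0.0472) and passed in none of the 4 fits without 1 library, against 1 such fit for each of the other 6. Without Cre+ replicate 4, 12 of 29 rose (1.78% of all genes), and without Cre- replicate 1 or Cre+ replicate 2 none did.

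Other milk and secretory products had the higher median. Of 17 tested members, 2 rose (Muc15 and Pigr) and none fell, with a median log2 fold change of 0.89. In all 4 libraries 12 were higher, as were 14.8% of all genes, and 0.426% of all genes rose. Muc15, a membrane mucin of the milk fat globule, stood at 342, 128, 241 and 105 CPM against 118, 53.4, 91.9 and 49.6 CPM (1.34 ± 0.11, adjusted p = 0.0226). Wfdc18, a small secreted protein and the most abundant member, stood at 34016, 20688, 13963 and 28259 CPM against 14591, 13147, 11228 and 17695 CPM (0.74 ± 0.18, adjusted p = 0.107). Spp1 stood at 1580, 4818, 1381 and 117 CPM against 556, 2144, 75.7 and 12.3 CPM (2.53 ± 0.52, adjusted p = 0.0769). Some defining genes of lactation were low. Glycam1 was at 0 UMIs in the milk-high and milk-low cells of both Cre- libraries. In the Cre+ libraries it stood at 2.06 and 20.9 CPM in milk-high cells and 14.1 and 0.754 CPM in milk-low cells. In the milk-high cells of Cre+ replicate 4, 223 of its 236 UMIs lay in 1 cell. Csn1s2b stood at 5.29, 11.5, 7.28 and 5.32 CPM in milk-high cells.

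None of the 18 alveolar regulators passed the test, with a median log2 fold change of 0.33. In all 4 libraries 9 of 18 were higher (14.8% of all genes), and 1 rose without Cre+ replicate 4 (1.78% of all genes). Elf5 stood at 309, 290, 256 and 237 CPM against 183, 201, 189 and 111 CPM, with no overlap between the classes (0.73 ± 0.14, adjusted p = 0.0688). Stat5a stood at 30.6, 13.9, 21.3 and 45.1 CPM against 26.1, 14.2, 21.5 and 32.9 CPM, 0.19 ± 0.13 on the log2 scale (adjusted p = 0.478). None of 24 milk lipid genes passed the test either (median 0.07; without Cre+ replicate 4, 1 rose, 1 fell and the median was -0.08), and Fasn stood at 65.1, 51.5, 61.4 and 78.7 CPM against 89.8, 59.5, 61.0 and 48.6 CPM. Of 22 lactose and transport genes, Folr1 alone rose (median 0.02), and without Cre+ replicate 4, 1 rose and 1 fell (median -0.08).

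Of 13 luminal progenitor genes, 2 rose and none fell (median 0.27), where 0.426% of all genes rose. Without Cre+ replicate 4, 2 rose and 1 fell (1.78% and 1.3% of all genes). Plet1 stood at 980, 674, 1165 and 806 CPM against 469, 357, 511 and 411 CPM (1.06 ± 0.09, adjusted p = 0.0236), with no overlap, and Tspan8 was the other. Kit, a receptor of progenitor cells, stood at 110, 78.2, 230 and 113 CPM against 62.1, 51.1, 189 and 190 CPM. Of 14 acute-phase and antimicrobial genes, Saa1 and Lrg1 rose (median -0.01, and 4 genes with a median of 0.55 without Cre+ replicate 4), while Wfdc2 stood at 59.4, 171, 58.0 and 3.19 CPM against 251, 274, 279 and 26.1 CPM (-1.91 ± 0.33, adjusted p = 0.059). The list held 15 genes, and Chi3l1 was not matched under that symbol. It is named Chil1 in these data and rose, as given above, but is missing from the counts and medians of this list. Interferon-stimulated genes had a median of 0.48 with 0 of 11 called.

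Of 15 basal genes tested, 3 fell in milk-high cells (Krt17, Vim and Sparc) and none rose, with a median log2 fold change of -1.36. In all 4 libraries 7 were lower, as were 12.1% of all genes, and 0.419% of all genes fell. Without Cre+ replicate 4, 2 basal genes fell (1.3% of all genes) and the median was -0.94. Trp63, a transcription factor of basal cells, stood at 4.42, 2.82, 8.07 and 1.24 CPM against 2.18, 2.29, 4.49 and 1.43 CPM and was not called. Krt17, a keratin of basal and stressed epithelium, stood at 14.5, 33.1, 21.3 and 15.7 CPM against 108, 154, 109 and 306 CPM (-2.88 ± 0.33, adjusted p = 0.0272). Krt14 stood at 37.9, 64.6, 68.7 and 21.1 CPM against 111, 100, 110 and 591 CPM and did not pass (adjusted p = 0.245). Of 9 squamous genes, Klk6 passed the test (log2 fold change -3.39, median of the list -1.71, and -0.63 over 7 genes without Cre+ replicate 4). It stood at 0.192, 0, 0 and 13.5 CPM against 0.182, 0.131, 0.492 and 180 CPM, so the value rests on Cre+ replicate 4, and it passed in none of the 3 fits without another library and had too few UMIs to be tested without that one. Hormone-sensing genes outside the rule had a median of -0.86 with Fxyd2 falling among 9 (called in none of the fits without 1 library), hypoxia and glycolysis genes -0.37 with P4ha1 and Pgk1 falling among 14, and cell cycle genes outside the rule -0.46 with 0 of 25 called. The rule capped hormone-sensing and cycling genes in both classes. Without Cre+ replicate 4, 8 of 25 cell cycle genes and 2 of 9 hormone-sensing genes fell, 1 hormone-sensing gene rose, and 5 of 17 other milk and secretory genes rose. With a limit of 200 milk UMIs per 10000, 814 of 13978 genes were called, 356 higher and 458 lower. Cells from 50 to 200 were then in neither class, so these counts are not set against those above. Then 18 cell cycle, 6 basal, 6 hypoxia and glycolysis and 3 hormone-sensing genes fell. Of these lists, 25, 15, 14 and 9 genes were tested at the limit of 50. At the limit of 200, 16 secretory pathway genes and 7 other milk and secretory genes rose (29 and 17 tested at the limit of 50).

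**Figure D5:**
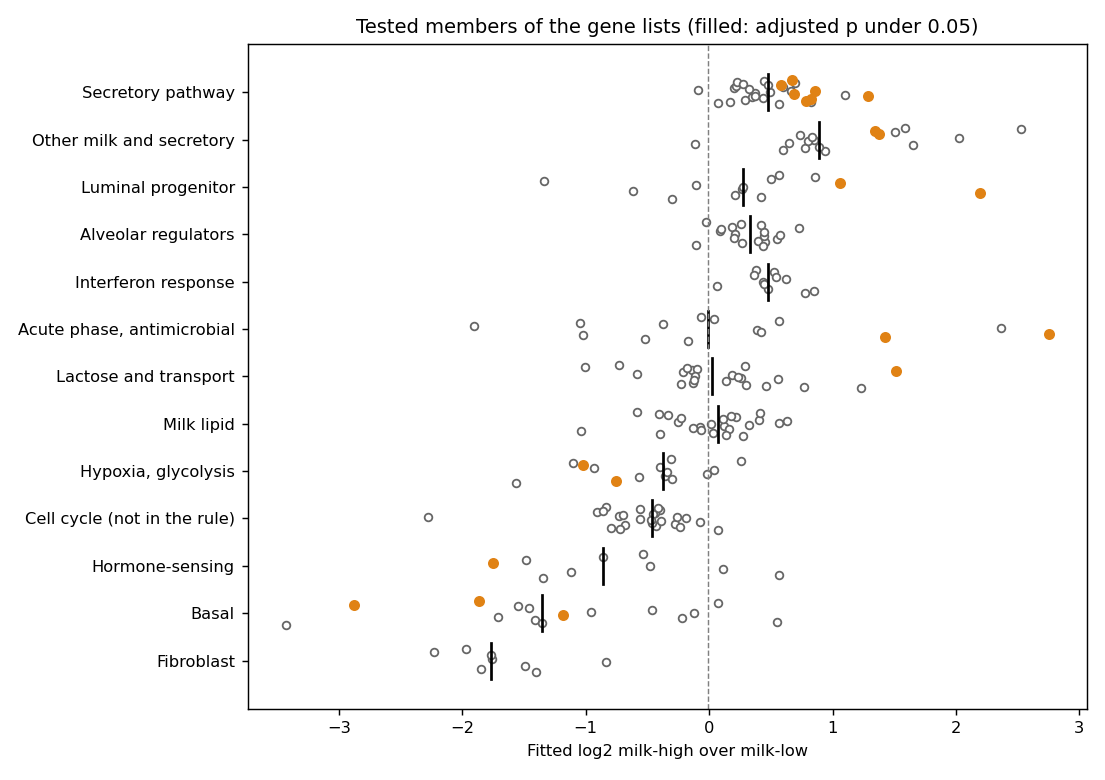
Fitted log2 ratio of milk-high over milk-low cells (x axis) for every tested member of 13 gene lists (y axis). Filled points passed an adjusted p of 0.05, black bars are list medians and the dashed line is the median of all genes. The secretory pathway has 7 filled points to the right, and the basal list 3 to the left.

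Markers of other cell types moved with the class in some libraries. The 8 fibroblast genes summed to 52.5, 150, 145 and 13.7 CPM in milk-high cells and 909, 162, 567 and 38.1 CPM in milk-low cells, with Col3a1 the most abundant at 267 and 200 CPM in the milk-low cells of Cre- replicate 1 and Cre+ replicate 2. None of the 8 was called (median -1.76). The part of fibroblast RNA in the lower levels of Sparc, Col4a1 and Vim was not tested. The 13 macrophage genes summed to 496, 504, 562 and 342 CPM against 269, 323, 412 and 433 CPM. Cd14, which luminal cells also express, led them, and Cd68 fell (-0.97 ± 0.13, adjusted p = 0.0374). Lymphocyte genes summed to at most 10.4 CPM in any library and class and adipocyte genes to at most 0.784 CPM, too low for any of the 6 to be tested. The 12 squamous genes summed to 1435 CPM in milk-low cells of Cre+ replicate 4 and to at most 96.2 CPM in those of the other libraries.

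Of 18 genes of involution, the regression of the gland after lactation, 0 were called (median 0.07). The same held for 18 genes of dissociation stress (median 0.27), 13 of antigen presentation (0.15), 15 of claudins and adhesion (0.12), 13 of EGF ligands and ERBB receptors (0.05), 6 endothelial (-0.65), 4 neutrophil (-0.01), 4 lymphocyte (-0.44) and 5 erythroid genes (0.01), all as median log2 fold changes. Without Cre+ replicate 4, 3 involution genes and 1 gene of dissociation stress rose and 1 of the EGF and ERBB genes fell. Of the 5 genes the study was built around, none was called. Frmd8, an adaptor of the iRhom and ADAM17 sheddase complex, stood at 24.3, 24.8, 5.62 and 17.1 CPM in milk-high cells of Cre- replicates 1 and 3 and Cre+ replicates 2 and 4, and at 27.6, 24.3, 5.16 and 10.8 CPM in milk-low cells (0.18 ± 0.15 on the log2 scale, adjusted p = 0.575).

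Whether the Cre transgene changed the number of milk-high cells was asked by comparing their share among epithelial cells. In the Cre- libraries it was 60.8% (95% Clopper-Pearson interval 58.7 to 62.9) and 56.6% (54.4 to 58.8). In the Cre+ libraries it was 66.9% (65.0 to 68.9) for replicate 2 and 13.5% (12.2 to 15.0) for replicate 4. The Cre+ libraries thus lay on both sides of the Cre- libraries in this share. Out of milk-high and milk-low cells together, the share was 77.3% and 66.1% in Cre- and 73.2% and 17.0% in Cre+. By that measure Cre+ replicate 2 lay between the Cre- libraries. The values that follow are shares among all epithelial cells. The mean was 58.7% ± 2.95 (SD, n = 2) in Cre- and 40.2% ± 37.8 (n = 2) in Cre+, a difference of -18.5 percentage points with an exact two-sided permutation p of 1.0, where 0.333 is the smallest this design allows. Without Cre+ replicate 4 the difference was 8.24 percentage points in the other direction.

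With 200 milk UMIs per 10000 as the limit, the shares were 19.3%, 17.7%, 35.3% and 1.17%. The upper decile of the milk level within milk-high cells was 311, 320, 410 and 194 per 10000, highest in Cre+ replicate 2 and lowest in Cre+ replicate 4 like the shares. Fewer barcodes of Cre+ replicate 4 were kept when only its deepest barcodes were used, and the share was then 16.5%.

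Gene levels in milk-high cells were then compared between the genotypes. No gene of 14689 passed an adjusted p of 0.05 in edgeR (0.0%), 383 had an unadjusted p under 0.05, and DESeq2 called 51. Regardless of the test, 11.7% of genes were higher in both Cre+ libraries than in both Cre- libraries, and 14.9% lower. Frmd8 itself was lower in both Cre+ libraries (log2 fold change -1.001 ± 0.61, adjusted p = 1.00, edgeR). The value was -0.33 without Cre+ replicate 2 and -2.20 without Cre+ replicate 4. Positions of reads within Frmd8 were not analysed here, so its count is no check of the deletion.

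The lowest p-values belonged to genes with very different levels. The nonagouti gene, a, which codes for a pigment-type switching protein, stood at 0.192 and 0.152 CPM in Cre- replicates 1 and 3 and at 587 and 195 CPM in Cre+ replicates 2 and 4 (log2 fold change 11.11 ± 0.75, adjusted p = 0.318, edgeR). It passed with DESeq2 (adjusted p = 9.85e-63) and in edgeR without Cre+ replicate 2 (0.00105) or without Cre+ replicate 4 (0.000883). Coats of Cre+ mice of this cross were yellow and those of Cre- mice black, and the part of this locus in other differences was not tested. Nexmif stood at 2.09 and 2.76 against 19.7 and 14.8 CPM, and the hemoglobin gene Hbb-bs at 0.0721 and 0.0303 against 2.22 and 3.63 CPM. Lif, a cytokine of the interleukin-6 family, stood at 49.6 and 51.8 CPM in Cre- and 18.4 and 12.4 CPM in Cre+ (-1.67 ± 0.22, adjusted p = 1.00). Vwa1 stood at 26.9 and 45.0 against 8.49 and 7.27 CPM, and Gfra1 at 13.4 and 12.5 against 1.96 and 0.620 CPM. The groups did not overlap for any of these 6 genes, which were selected for their p-values. DESeq2 called all 6, with the other adjusted p-values from 2.23e-09 (Nexmif) to 0.00031 (Vwa1), and Gfra1 also passed in edgeR without Cre+ replicate 2 (adjusted p = 0.0487).

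The 6 milk genes of the rule were part of the fit between genotypes, and none of them passed in edgeR with all 4 libraries. DESeq2 called Csn2 (adjusted p = 0.0111). The rule cuts the level of these genes from below, so their fits are read as description beside the levels given above. Csn2, Csn1s1 and Csn1s2a were higher in both Cre+ libraries than in both Cre- libraries, as were 11.7% of all genes tested. The size of their differences rested on Cre+ replicate 4. Without it the log2 fold change went from 14.2 to 6.14 for Csn2, 0.80 to 0.27 for Csn1s1 and 3.70 to 0.43 for Csn1s2a. In Cre+ replicate 2, Csn2 held 38 UMIs in 3 cells, and Csn1s2a stood at 2.87 CPM against 2.62 CPM in Cre- replicate 1. The genotypes overlapped for Csn3, Lalba and Wap. Elf5 stood at 309 and 290 CPM in Cre- and 256 and 237 CPM in Cre+ (-0.22 ± 0.22). Foxo3 (46.7 and 57.4 against 44.3 and 44.1 CPM), Ube3a (117 and 130 against 144 and 101 CPM), Esr1 (2.07 and 1.70 against 2.87 and 0.443 CPM) and Pgr (2.52 and 0.940 against 3.46 and 0 CPM) were also not called. Of 17 other milk and secretory genes, 0 were called, 2 were higher and 3 lower in both Cre+ libraries. Of 18 alveolar regulators 0 were called, 3 higher and 3 lower. Over all genes tested, 11.7% were higher and 14.9% lower, so both lists lay near these shares. Among 11 interferon-stimulated genes, a list picked here after its values were seen, 0 were called (median log2 fold change 1.16). Of these, 6 were higher and 0 lower in both Cre+ libraries, with summed levels of 1205, 1094, 1463 and 2751 CPM.

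The last comparison asked whether the difference between milk-high and milk-low cells itself differed between the genotypes. No gene of 15036 passed (0.0%, edgeR), 598 had an unadjusted p under 0.05, and DESeq2 called 23. Spp1 had 1 of the lowest p-values. Its log2 ratio of milk-high over milk-low cells was 1.62 and 1.16 in Cre- replicates 1 and 3 and 4.13 and 3.29 in Cre+ replicates 2 and 4, and the fitted difference, Cre+ over Cre-, was 2.33 ± 0.35 (adjusted p = 0.951, edgeR). It passed with DESeq2 (adjusted p = 2.52e-08) and in edgeR without Cre+ replicate 2 (0.0400) or without Cre+ replicate 4 (0.0469). Ltf (lactoferrin), an iron-binding milk protein, had ratios of 1.94 and 3.11 in the Cre- libraries, 0.53 and 0.56 in the Cre+ libraries and a fitted difference of -1.97 ± 0.40 (adjusted p = 0.997 with edgeR and 0.000724 with DESeq2). The others named by their p-values were Gm35696 (1.96), Crct1 (7.67), Egr3 (-1.98), Slc5a1 (-1.97) and Enc1 (-2.01), as log2 differences, Cre+ over Cre-. All but Crct1 passed with DESeq2, and all 5 in edgeR without Cre+ replicate 2. The difference of Crct1 was 4.83 without Cre- replicate 3 and 1.39 without Cre+ replicate 4 and passed in neither fit, but it passed without Cre- replicate 1 (7.62, adjusted p = 0.00492). Gm35696 and Enc1 also passed without Cre+ replicate 4 (adjusted p = 0.0469 for both). Crct1 was at 0, 0.0910 and 0 CPM in the milk-high cells of Cre- replicates 1 and 3 and Cre+ replicate 2 and at 104 CPM in those of Cre+ replicate 4, so its fitted value depends on the prior count.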

How the data were processed

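Single-cell libraries of 3' ends from 2 Cre- and 2 Cre+ mammary tumors were analysed. The files hold counts of UMIs for each gene in each barcode, deposited without normalization and made with Cell Ranger (per the file headers, version 6.1.2 for replicates 1 to 3 and 4 for replicate 4); the submitters' processing notes name the build hg38, although the gene identifiers are those of mouse, so no coordinates of reads are given. As worded, the study's filter removes cells under 30000 UMIs and cells with 200 to 5000 genes. It was read here the other way, as limits on the cells to keep, and tried as an alternative only. No doublet caller was run.

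Members and gene lists were chosen with earlier results of these data known. UMIs were summed per library and class and tested with edgeR 4.0.16 (R 4.3.3; TMM, filterByExpr, quasi-likelihood F test, Benjamini-Hochberg adjustment over all genes, threshold 0.05). The code was also run on simulated counts with 1 fixed dispersion and no library effect. That setting differs from these libraries, so the run is no check of the tests on them. The class comparison and the interaction had the library as a block, since both classes came from the same library; the genotype comparison had none. CPM values divide by all UMIs of the class in the library. Shares and medians were tested by exact permutation with Python 3.11.15 and scipy 1.17.1. Alternatives were DESeq2 1.42.0, no low-count filter, no block, each library left out, and other limits of the rule. Named are the listed genes, the 10 largest called changes of 1 sign in all 4 libraries with at least 20 CPM in the higher class, and, where none was called, the 3 lowest p-values in each direction. Promoters came from RefSeq (GRCm38.p6).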

Additional observations from a re-analysis of the deposited data

Results flagged for a closer look

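Barcodes outside the comparisons held milk RNA. In Cre+ replicate 4, the one library deposited with all barcodes, Csn3 stood at 1541 CPM in the barcodes of 1 to 100 UMIs, which hold too few UMIs to be taken for cells, out of 4981956 UMIs in them. The 6 milk genes together stood at 1652 CPM there, and Csn2 at 46.8 CPM. In the leukocytes of this library, chosen for little epithelial RNA, the median milk level was 0 per 10000.

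Epithelial barcodes over the limit on cycling genes that also reached 50 milk UMIs per 10000 numbered 227 in Cre+ replicate 4, against 67, 161 and 50 in Cre- replicates 1 and 3 and Cre+ replicate 2. Of all barcodes that reached this milk level and missed another limit, 149 of 227 had under 1% mitochondrial UMIs in Cre+ replicate 4, against 10 of 101, 19 of 162 and 9 of 63 in the others. Among milk-high cells, 57, 102, 67 and 40 cells of Cre- replicates 1 and 3 and Cre+ replicates 2 and 4 had under 1%, which is 4.39%, 8.90%, 4.47% and 12.4% of them.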

How the results depend on the processing

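The 127 genes called between milk-high and milk-low cells became 890 with DESeq2 (125 of them shared), 575 without a low-count filter, 814 with a limit of 200 milk UMIs per 10000, 1177 with a comparator free of limits on hormone-sensing and cycling genes, 648 under 200 to 5000 genes and 30000 UMIs, 665 with epithelial genes at 30 per 10000, 239 after thinning to 2000 UMIs and 0 with no replicate block, where 729 had an unadjusted p under 0.05. Leaving out 1 library gave 1 to 457. Between genotypes, 0 calls became 51 with DESeq2, 3 without the filter, 1 at 200 milk UMIs and 0 to 65 with 1 library left out, the highest without Cre+ replicate 2. For the interaction, 0 became 23 with DESeq2, 10 without the filter, 3 under the limits on genes and UMIs and 5 to 232 with 1 library left out, again highest without Cre+ replicate 2. The causes were not tested. The difference in share among all epithelial cells ran from -45.2 to 8.24 percentage points with 1 library left out and reversed without Cre+ replicate 4. It was -0.266 with a limit of 200 milk UMIs per 10000, and lay between -19.3 and -16.8 under the other alternatives run for that share. Differences in median UMIs, genes and mitochondrial share moved by less than 1 SD. Of 38 named genes of the class comparison, no fold change reversed under any alternative run, but of their values under alternatives 153 no longer passed, 13 newly passed and 363 kept their side of the threshold. With 2 libraries per genotype, calls rest on few residual degrees of freedom, and milk genes at a few UMIs cannot be compared.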
